A study of Mus musculus with 5 samples.

Results

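The 5 genes described here are the mouse cell cycle inhibitors of the INK4 family, Cdkn2a, Cdkn2b, Cdkn2c and Cdkn2d, and the KIP family member Cdkn1b. They were taken by exact gene symbol from the 42454 features counted in each library, and each symbol matched 1 feature. The cells were from lungs of C57BL/6J mice. Pups under 12 h old breathed room air or over 95% O2 for 3 days, with the dams exchanged between the chambers every 24 h, and then recovered in air until postnatal day (pnd) 7 or 60. Whole lungs were dissociated and single-cell RNA-seq gave 5 libraries, which are air at pnd7, hyperoxia at pnd7, air at pnd60, hyperoxia at pnd60, and cells of hyperoxia-exposed lungs at pnd7 that were sorted for C12FDG. C12FDG is a fluorescent substrate of the lysosomal β-galactosidase that is used as a sign of senescence, and the sorted library pooled cells of 3 lungs. The authors had published the unsorted data in an earlier study and reused them as controls. The sorted cells were sequenced for the present study. Each condition had 1 library, so no test across mice was possible, and every interval below is a 95% interval that covers counting error only.

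INK4 proteins bind CDK4 and CDK6 and keep them from pairing with D-type cyclins, which leaves the retinoblastoma protein able to hold back E2F factors and the entry into S phase. KIP proteins such as p27, the product of Cdkn1b, bind cyclin-CDK complexes more broadly, including those of CDK2. Cdkn2a encodes p16 and, from another start, the p53 regulator p19ARF, Cdkn2b encodes p15, Cdkn2c encodes p18 and Cdkn2d encodes p19INK4d. p16 and p15 are well known as brakes in senescent or growth-arrested cells, whereas p18 and p19INK4d are also made in cycling and differentiating cells.

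By the RefSeq annotation of build GRCm38.p6, Cdkn2a (chr4:89274473-89294619) and Cdkn2b (chr4:89306289-89311032) lie beside each other on the minus strand, 11669 bases apart. Cdkn2c lies on the same strand of the same chromosome (chr4:109660876-109666756), Cdkn2d on the minus strand of chromosome 9 (chr9:21288459-21291421) and Cdkn1b on the plus strand of chromosome 6 (chr6:134920401-134925525). The lncRNA gene Gm12610 covers Cdkn2b on the opposite strand. It had 6 counts over all libraries, none in a cell that also had a Cdkn2b count. The 2 starts of Cdkn2a are 12427 bases apart and share the downstream exons, so a 3′ count table does not separate p16 from p19ARF. The sequences shown run from 250 bases before to 50 after the start, as RefSeq gives them on the strand of the gene. They cover the pair at this locus and the outer start of Cdkn2c. Capitals mark a match to the E2F-type letters TTCCCGC.
Cdkn2a, outer start (chr4:89294570-89294869, minus strand): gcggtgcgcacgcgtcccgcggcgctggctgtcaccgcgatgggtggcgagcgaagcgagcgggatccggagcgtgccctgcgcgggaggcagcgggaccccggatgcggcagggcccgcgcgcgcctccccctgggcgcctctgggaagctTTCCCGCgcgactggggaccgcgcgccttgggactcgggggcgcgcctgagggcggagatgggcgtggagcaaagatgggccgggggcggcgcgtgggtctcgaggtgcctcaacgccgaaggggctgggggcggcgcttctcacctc
Cdkn2a, inner start (chr4:89282143-89282442, minus strand): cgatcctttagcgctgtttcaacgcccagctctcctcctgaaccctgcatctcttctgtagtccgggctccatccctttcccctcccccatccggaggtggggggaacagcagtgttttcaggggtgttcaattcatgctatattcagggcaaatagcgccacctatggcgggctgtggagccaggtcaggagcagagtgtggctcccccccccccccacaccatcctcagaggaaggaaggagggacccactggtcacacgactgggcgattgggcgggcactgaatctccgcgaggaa
Cdkn2b (chr4:89310983-89311282, minus strand): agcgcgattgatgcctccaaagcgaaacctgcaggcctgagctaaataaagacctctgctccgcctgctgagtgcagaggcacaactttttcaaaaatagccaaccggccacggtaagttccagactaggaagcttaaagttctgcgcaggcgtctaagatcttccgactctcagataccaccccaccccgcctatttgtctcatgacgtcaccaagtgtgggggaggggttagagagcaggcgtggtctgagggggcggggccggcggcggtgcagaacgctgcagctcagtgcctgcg
Cdkn2c, outer start (chr4:109666707-109667006, minus strand): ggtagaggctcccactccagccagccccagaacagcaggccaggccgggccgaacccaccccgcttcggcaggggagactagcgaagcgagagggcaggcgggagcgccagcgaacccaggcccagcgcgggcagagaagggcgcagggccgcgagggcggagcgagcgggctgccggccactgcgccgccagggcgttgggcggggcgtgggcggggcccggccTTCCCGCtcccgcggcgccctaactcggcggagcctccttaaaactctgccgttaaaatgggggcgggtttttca
Of the 7 promoter windows of the 5 genes, these letters stood in the outer window of Cdkn2a, from position -98 relative to the start, and in the outer window of Cdkn2c, from position -25. The letters TTTGGCG, also searched on both strands, stood in none of the 7. Cdkn2c and Cdkn2d were both higher in cells with cell cycle genes in every library, and the window of Cdkn2d, not shown, held no match. TTCCCGC or its reverse complement was found in 4.60% of the 32851 RefSeq promoter windows of the same length, TTTGGCG in 1.56% and either of them in 5.99%.

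After cells were filtered on gene number and mitochondrial share, the libraries held 493 to 4756 cells, 13200 in all, and 7880365 to 16648251 unique molecular identifier (UMI) counts. The median cell had 3915 counts in air and 7119.5 in hyperoxia at pnd7, 15529 in the sorted library, and 2168 and 2315.5 at pnd60, so shares of cells with a count are given after each cell was thinned to 1000 counts, with the unthinned share beside them. Cells were clustered without the 5 genes, and 19 classes were named from marker genes and are called "-like" here. The ciliated-like and club-like names were not stable. In a finer clustering (Leiden resolution 2), the ciliated-like cluster held 75 cells, 5 from air at pnd7, against 202 and 116 here. A club-like cluster led by Scgb1a1 held 128 cells, 112 from air at pnd7. An unnamed cluster with Scgb3a2 and Cdk1 held 105 cells of hyperoxia at pnd7, where 81 were club-like here. Unnamed clusters held 35.4% of the cells in air at pnd7, 15.5% in hyperoxia at pnd7 and at most 4.94% in the other libraries. Hemoglobin genes made up 3.38% and 2.22% of the counts in air and hyperoxia at pnd7 and at most 0.296% elsewhere. Cells with cell cycle genes, meaning at least 3 counts and at least 0.2% of a cell's counts from 20 genes such as Mki67 and Top2a, were 17.1%, 28.3% and 20.3% of the cells in air, hyperoxia and the sorted library at pnd7, and 2.00% and 1.79% in air and hyperoxia at pnd60. Of the cell barcodes, 34 occurred in more than 1 library, none of them in the sorted library.

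Levels are in CPM, the UMI counts of a gene scaled to a total of 1000000 counts in the library or class. Levels of different genes were not set against each other, since 3′ counts carry no length scale. Cdkn2a was close to the detection limit, with 61 counts in 56 of the 13200 cells (0.424%). Its level was 1.14 CPM [0.687 to 1.78] in air and 1.47 [0.900 to 2.28] in hyperoxia at pnd7, 0.381 [0.0785 to 1.11] in the sorted library, 0.746 [0.372 to 1.33] in air at pnd60 and 0.484 [0.209 to 0.953] in hyperoxia at pnd60. The intervals of hyperoxia and air overlapped at both ages. Thinned, 0.130%, 0.161%, 0%, 0% and 0.0425% of the cells had a count in these libraries.

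Cdkn2b, with 993 counts in 501 cells, stood at 17.8 CPM [15.8 to 19.9] in air and 23.0 [20.5 to 25.7] in hyperoxia at pnd7, 2.03 [1.16 to 3.30] in the sorted library, and 11.8 in both air and hyperoxia at pnd60. Cdkn2c, with 2328 counts, stood at 42.8 and 53.5 CPM at pnd7, 11.7 in the sorted library, and 25.0 and 25.9 at pnd60. By CPM both were highest in hyperoxia at pnd7 and lowest in the sorted library. Thinned, 2.17% of the cells in air and 1.85% in hyperoxia at pnd7 had a Cdkn2b count (6.24% and 7.46% unthinned). For Cdkn2c these shares were 2.78% and 3.37% (13.7% and 22.7% unthinned). Cdkn2d, with 3430 counts, lay between 50.8 and 59.5 CPM in the 4 unsorted libraries and at 11.04 in the sorted library. Cdkn1b, with 7031 counts, stood at 77.5 CPM in air and 62.6 in hyperoxia at pnd7, 50.3 in the sorted library, 142 in air and 145 in hyperoxia at pnd60. Its levels in the adult lung were the highest of the 5 libraries. Thinned, 8.51% of the cells in air and 6.91% in hyperoxia at pnd7 had a Cdkn1b count, against 15.96% and 16.8% at pnd60, whereas the unthinned shares were 34.2%, 39.7%, 35.0% and 36.2%.

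**Figure D1:**
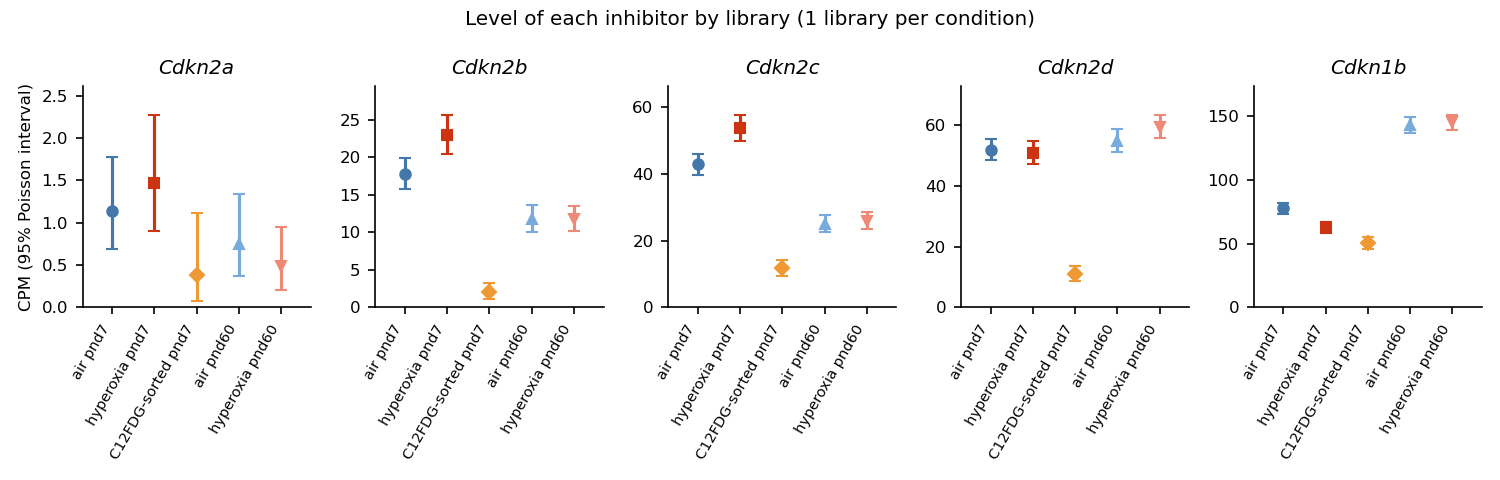
Level of each inhibitor in the 5 libraries, in CPM on axes that start at 0 and differ between genes. Points are 1 library each and bars are 95% Poisson intervals. Cdkn1b stands at 142 and 145 CPM in the pnd60 libraries against 77.5 and 62.6 in the pnd7 libraries, and Cdkn2b, Cdkn2c and Cdkn2d are lowest in the sorted library.

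By pooled level Cdkn2b was highest in type I-like cells, the flat epithelial cells that line the alveoli. Pooled over libraries, type I-like cells (cluster 22) held 384 counts, 255 CPM [230 to 282]. Endothelial-like cells came next at 31.2 CPM [27.0 to 35.9], ciliated-like cells at 16.5, and alveolar macrophage-like cells stood at 0.848. The intervals of the first, the second and the following class did not overlap. Thinned, 22.5% of type I-like cells had a count (63.6% unthinned, median 5512 counts per cell), against 0.215% of alveolar macrophage-like cells (1.07% unthinned, median 11584.5 counts). Interstitial macrophage-like cells had 0 counts, where 3 counts would have been 1.76 CPM.

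Within type I-like cells the level stood at 294.5 CPM in air (76 counts in 20 cells) and 278 in hyperoxia (185 counts in 54 cells) at pnd7, and at 235 in air (54 counts in 40 cells) and 211 in hyperoxia (60 counts in 53 cells) at pnd60. The 4 intervals overlapped. Cells with cell cycle genes were 23 of the 54 type I-like cells (42.6%) in hyperoxia at pnd7 and 0 of the 53 at pnd60. Without such cells, hyperoxia at pnd7 stood at 405 CPM [343 to 476], above the 211 [161 to 272] of hyperoxia at pnd60. In the sorted library, 6 type I-like cells held 9 of its 16 counts. All markers of the type I list were detected in this cluster except Pdpn, at 0, and Ager had 5 counts, whereas Hopx stood at 4479 CPM and Rtkn2 at 1431.

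In air at pnd7 only 20 cells fell into that cluster, and 153 of the 296 Cdkn2b counts of the library were in an unnamed cluster of 672 cells led by hemoglobin genes. When these cells were classed by their own markers, 92 of the 153 counts were in 68 cells with type I markers (162 CPM), 49 were in 544 cells with erythroid markers (35.1 CPM) and 12 in the remaining 60 cells. Hemoglobin made up 12.95% of the counts of this cluster. In hyperoxia at pnd7 the same cluster had 58 cells, and its 57 Cdkn2b counts were all in 9 cells with type I markers. Over all cells classed by their own markers, type I cells stood at 207 CPM in air (169 counts in 88 cells) and 258 in hyperoxia (221 counts in 57 cells) at pnd7, and at 188 and 154 CPM at pnd60. The log2 ratio of hyperoxia to air was 0.32 [0.02 to 0.61] at pnd7 and -0.29 [-0.84 to 0.26] at pnd60, and that of pnd60 to pnd7 was -0.14 in air and -0.75 [-1.17 to -0.34] in hyperoxia.

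At pnd60, endothelial-like cells held 74 Cdkn2b counts in air and 67 in hyperoxia, against 54 and 60 in type I-like cells. The endothelial-like level came mostly from 1 cluster of the adult lung. Cluster 17, with 249 cells led by Ednrb, Kdr and Apln and found in the pnd60 libraries alone, stood at 173 CPM [145 to 206] in 130 counts. It stood at 183 CPM [142 to 231] in air and 163 [125 to 210] in hyperoxia. Thinned, 16.9% of its cells had a count. The larger endothelial-like cluster at pnd60, cluster 1 with 1135 cells led by Sema3g and Sema3c, stood at 4.78 CPM in air and 4.88 in hyperoxia, and the main endothelial-like cluster at pnd7, cluster 16, at 24.8 CPM pooled. Cluster 17 detected 13 of 14 endothelial markers, at a summed 23132 CPM against 608 in type I-like cells. Of the 8 type I markers it detected 6, with Ager and Pdpn at 0, at a summed 2222 CPM, close to the 2512 CPM of cluster 1. Different genes led these sums. Cluster 17 was higher than cluster 1 in Clic5 (1361 against 816 CPM) and Hopx (710 against 235), and lower in Vegfa (109 against 1400). In type I-like cells Clic5 stood at 2302 CPM, Hopx at 4479 and Vegfa at 4272. The type I marker Rtkn2 stood at 7.99 CPM in cluster 17, 7.91 in cluster 1 and 1431 in type I-like cells. Akap5 stood at 29.3, 37.3 and 1593 CPM in the same order.

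**Figure D2:**
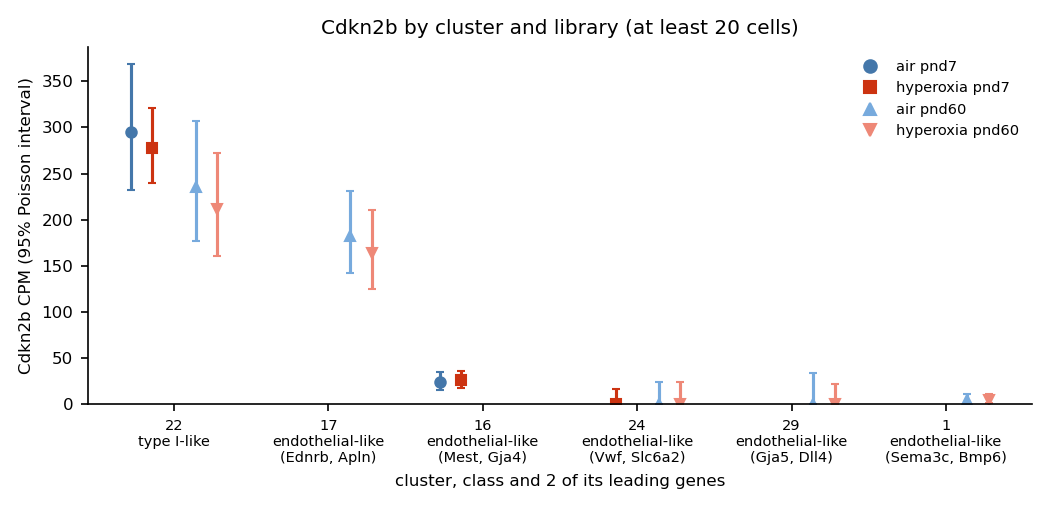
Cdkn2b level in CPM in type I-like and endothelial-like clusters, by library, for clusters with at least 20 cells of the library. Bars are 95% Poisson intervals. Type I-like cluster 22 and endothelial-like cluster 17 stand at 163 CPM or more in every library drawn, and the other endothelial-like clusters stand near or below 24.8 CPM.

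Cdkn2c was highest in fibroblast-like cells, at 125 CPM [117 to 134] in 812 counts pooled over libraries, above and apart from club-like cells (77.5), myofibroblast or smooth muscle-like cells (76.95), erythroid-like cells (65.0) and pericyte-like cells (44.1). The lowest levels were in type II-like cells, which secrete surfactant (5.77), and ciliated-like cells (5.30). Without cells with cell cycle genes, the levels were 112 CPM in fibroblast-like, 57.2 in erythroid-like, 41.2 in myofibroblast or smooth muscle-like, 31.4 in pericyte-like and 15.4 in club-like cells. Of all club-like cells of hyperoxia at pnd7, 65.4% had cell cycle genes. Thinned, 10.9% of fibroblast-like cells had a count (43.1% unthinned, median 4666 counts per cell), against 0.675% of type II-like cells (4.27% unthinned, median 6992 counts). By library, fibroblast-like cells stood at 104 CPM in air (182 counts) and 142 in hyperoxia (274 counts) at pnd7, and at 117 (160 counts) and 138 (195 counts) at pnd60. These cells came mostly from cluster 18 at pnd7, with 14 cells in air and 6 in hyperoxia from cluster 5, and from cluster 5 at pnd60.

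Among classes with at least 50 cells over all libraries, Cdkn2d and Cdkn1b were both highest in 5 blood cell classes, named next. Mast cell or basophil-like cells, only 40 in all, stood at 143 CPM [97.5 to 204] of Cdkn2d and 148 [101 to 209] of Cdkn1b. Other blood-derived classes were lower. Erythroid-like cells stood at 46.6 CPM of Cdkn2d and 61.3 of Cdkn1b, and dendritic cell-like cells at 42.5 and 122. Interstitial macrophage-like cells stood at 21.7 and 65.8. Cdkn2d stood at 233 CPM [182 to 294] in neutrophil-like cells, 157 in NK cell-like, 114 in T cell-like, 112 in monocyte-like and 111 in B cell-like cells, and at 16.1 in alveolar macrophage-like, 14.9 in type II-like and 11.9 in ciliated-like cells. Cdkn1b stood at 292 CPM [234 to 358] in neutrophil-like, 235 in T cell-like, 231 in B cell-like, 217 in monocyte-like and 179 in NK cell-like cells. The intervals of neighbouring blood cell classes overlapped, except those of NK cell-like and T cell-like cells for Cdkn2d, and those of the 5 blood cell classes lay above alveolar macrophage-like cells, at 58.5 CPM for Cdkn1b, in both genes. Of the classes with at least 50 cells, club-like cells came next for Cdkn2d, at 97.7 CPM [81.1 to 117]. This interval overlapped the T cell-like, monocyte-like and B cell-like intervals. Without cells with cell cycle genes, club-like cells stood at 12.8 CPM of Cdkn2d (5 counts). Thinned, 11.4% of T cell-like cells had a Cdkn2d count (25.8% unthinned, median 2574 counts per cell), against 1.35% of type II-like cells (11.2% unthinned), and 23.3% had a Cdkn1b count (50.04% unthinned), against 7.35% of type II-like cells (42.3% unthinned). B cell-like and T cell-like cells were 27.8% and 11.3% of the cells in air at pnd60 and 1.43% and 4.68% in air at pnd7.

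**Figure D3:**
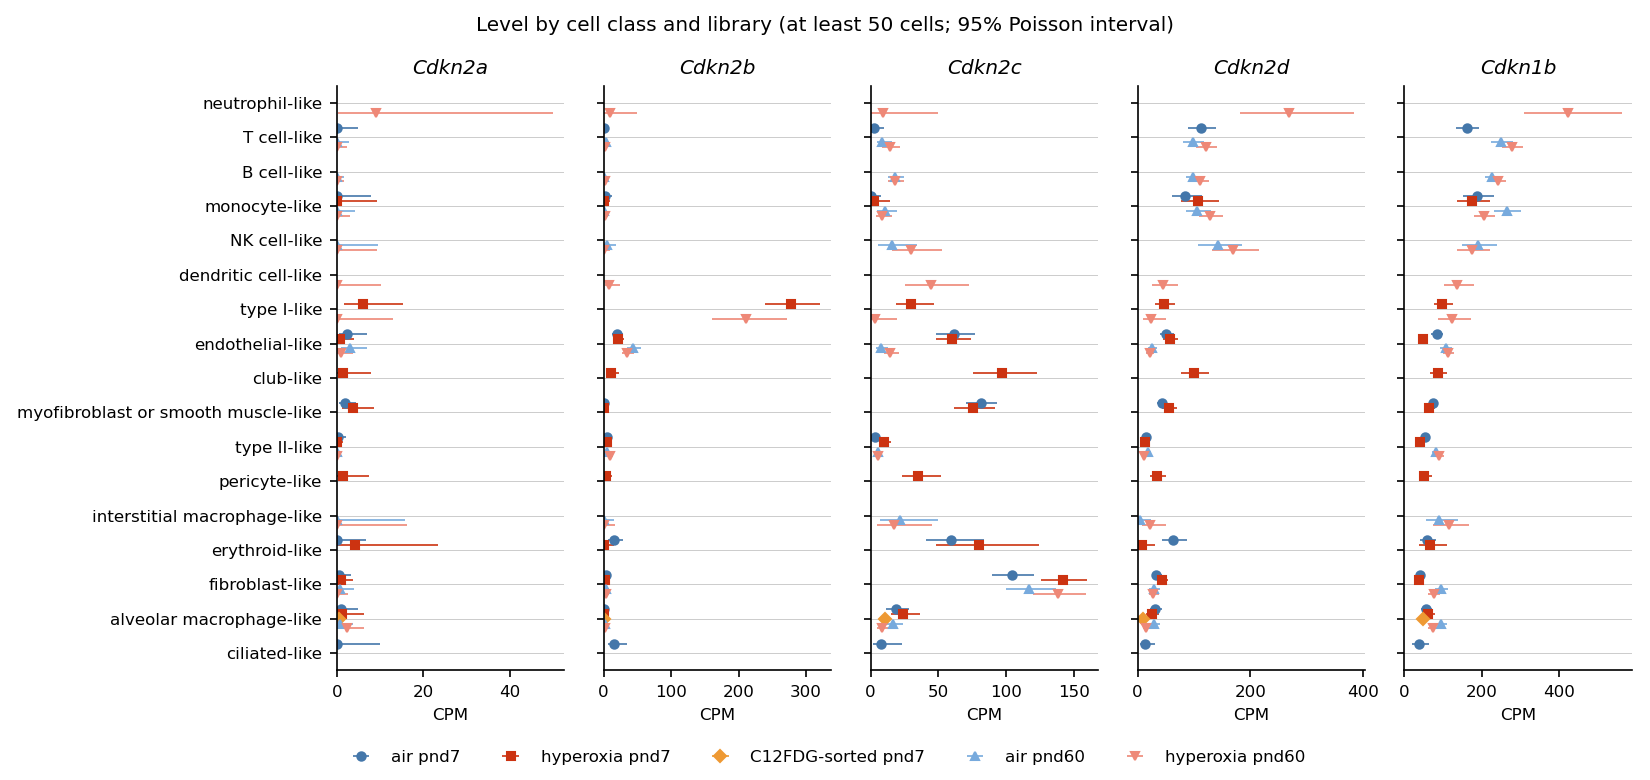
Level of each inhibitor by cell class and library, in CPM on axes that start at 0 and differ between genes, for classes with at least 50 cells in the library. Bars are 95% Poisson intervals. Cdkn2b stands out in type I-like cells (278 CPM in hyperoxia at pnd7) and Cdkn2c in fibroblast-like cells (104 to 142 CPM). Cdkn2d and Cdkn1b stand out in neutrophil-like, NK cell-like, T cell-like, B cell-like and monocyte-like cells. Club-like cells are also high for Cdkn2d, at 97.7 CPM pooled over libraries.

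Over 41 groups of 1 class in 1 library, spanning 17 classes, the patterns of Cdkn2d and Cdkn1b were alike (Pearson r = 0.73 of log2(CPM + 10)), whereas Cdkn2b followed neither Cdkn2c (r = -0.08), Cdkn2d (-0.10) nor Cdkn1b (-0.06). The groups share 5 libraries, so r is a description. Among 13080 genes, the nearest to Cdkn2b were Evpl (r = 0.93), Arhgef26 (0.89) and Itga3 (0.89). Gstm5 (0.85) and Palld (0.83) were nearest to Cdkn2c. Frat2 (0.80), Prr7 (0.80) and Nsd3 (0.79) were nearest to Cdkn2d, and Ifi209 (0.89), Dusp2 (0.88) and Pstpip1 (0.87) to Cdkn1b. Cdkn2a had too few counts for this measure.

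Cdkn2c and Cdkn2d were higher in cells with cell cycle genes. The cut of 0.2% divides a range, and 80 to 564 cells per library had 0.1% to 0.4% of their counts from these genes. In cells with cell cycle genes Cdkn2c stood at 124 CPM against 23.7 in the other cells of air at pnd7, 113 against 28.9 in hyperoxia at pnd7, 117 against 20.3 in air at pnd60 and 109 against 22.6 in hyperoxia at pnd60. The log2 ratios were 2.39, 1.97, 2.53 and 2.27, and the intervals of both groups were apart in all 4. In the sorted library the levels were 40.9 and 3.12 CPM, with 92 counts in all. Cdkn2d stood at 110 against 38.1 CPM in air and 95.6 against 32.1 in hyperoxia at pnd7 (log2 ratios 1.53 and 1.57), and at 102 against 52.4 and 120 against 57.0 at pnd60 (0.96 and 1.08).

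Over whole libraries, Cdkn2b was lower in such cells and Cdkn1b differed little. Cells with cell cycle genes had 13.5 CPM of Cdkn2b against 18.8 in air and 16.1 against 25.9 in hyperoxia at pnd7, and 1 count against 173 in air and 2 against 193 in hyperoxia at pnd60 (log2 ratios of CPM -3.12 [-8.43 to -0.63] and -1.94 [-5.00 to -0.07]). The Cdkn1b ratios lay between -0.15 and 0.45 on the log2 scale in the 5 libraries. Counting a gene with at least 100 counts as called when the log2 ratio was at least 1 in size, 2 of 4 members were called in air at pnd7 (8.71% of all genes), 2 of 4 in hyperoxia at pnd7 (9.54%), 2 of 4 in air at pnd60 (25.8%), 3 of 4 in hyperoxia at pnd60 (26.8%) and 0 of 1 in the sorted library (6.82%).

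**Figure D4:**
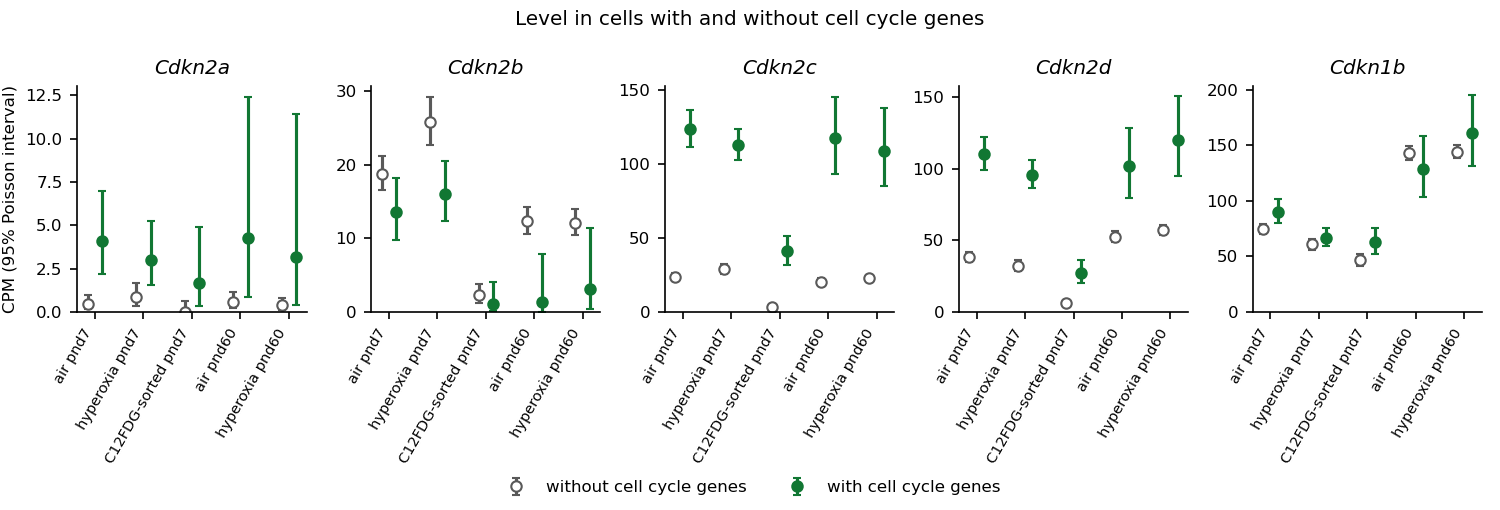
Level of each inhibitor in cells with (filled) and without (open) cell cycle genes in each library, in CPM on axes that start at 0 and differ between genes. Bars are 95% Poisson intervals. Cdkn2c stands at 109 to 124 CPM in cells with cell cycle genes of the unsorted libraries against 20.3 to 28.9 in the others, while the Cdkn1b pairs lie close together.

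The difference was also seen inside classes. In myofibroblast or smooth muscle-like cells of air at pnd7, Cdkn2c stood at 232 CPM in cells with cell cycle genes and 44.7 in the others, and Cdkn2d at 138 and 19.5, both called (8.14% of all genes). In hyperoxia at pnd7 Cdkn2c of this class stood at 153 and 38.3 CPM and was called (5.04%). In endothelial-like cells at pnd7, 71 of 77 Cdkn2c counts in air (188 against 6.85 CPM) and 76 of 86 in hyperoxia (138 against 11.3 CPM) were in cells with cell cycle genes. In sorted alveolar macrophage-like cells it was 60 of 71 counts (38.1 against 2.17 CPM). Erythroid-like cells of air at pnd7, the red blood cell lineage, were an exception, with 67.1 and 55.0 CPM of Cdkn2c. Cdkn1b differed more inside endothelial-like cells at pnd7 than over whole libraries. With and without cell cycle genes it stood there at 138 and 59.3 CPM in air (1.21 [0.63 to 1.80]). In hyperoxia it stood at 72.9 and 32.7 CPM (1.16 [0.43 to 1.90]). In myofibroblast or smooth muscle-like cells it stood at 104 and 67.6 CPM in air, and at 55.0 and 67.8 in hyperoxia. Cdkn2b was lower in such cells inside the type I-like class of hyperoxia at pnd7, as it was over whole libraries. It stood at 126 CPM in cells with cell cycle genes and 405 in the others (38 and 147 counts). The log2 ratio was -1.69 [-2.24 to -1.17] (19.2% of all genes called). Cdkn2c of the same type I-like cells stood at 59.5 and 5.52 CPM (18 and 2 counts).

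Many of the few Cdkn2a counts also lay in cells with cell cycle genes. Of the cells with a Cdkn2a count, such cells were 13 of 19 in air at pnd7 (against 17.1% of all cells of the library), 9 of 15 in hyperoxia at pnd7 (against 28.3%), all 3 in the sorted library (against 20.3%), 3 of 11 in air at pnd60 (against 2.00%) and 2 of 8 in hyperoxia at pnd60 (against 1.79%). As a level, Cdkn2a stood at 4.09 CPM in cells with cell cycle genes and 0.445 in the others in air at pnd7, 3.01 and 0.834 in hyperoxia at pnd7, 4.25 and 0.570 in air at pnd60 and 3.16 and 0.377 in hyperoxia at pnd60. In hyperoxia at pnd7, 4 of the 12 counts in cells with cell cycle genes were in 1 cell of an unnamed cluster. In that library, myofibroblast or smooth muscle-like cells had 1 count with and 4 without cell cycle genes. Type I-like cells had 1 and 3. In air at pnd7, myofibroblast or smooth muscle-like cells had 4 and 1. Cells with a Cdkn2a count were deep, with a median of 15435.5 counts against 2671 in all cells, and the part of depth in these shares was not tested. Of the 56 cells, 13 also had a Cdkn2b count and 16 a Cdkn1a count. By class, 11 counts were in endothelial-like cells (1.74 CPM), 10 in myofibroblast or smooth muscle-like cells (2.47 CPM) and 10 in alveolar macrophage-like cells (0.848 CPM). B cell-like, T cell-like, NK cell-like and monocyte-like cells had 0 counts in 2527, 1225, 361 and 757 cells.

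Hyperoxia was then set against air at each age. At pnd7 the log2 ratios were 0.37 [0.14 to 0.60] for Cdkn2b, 0.32 [0.17 to 0.48] for Cdkn2c, -0.03 [-0.18 to 0.12] for Cdkn2d and -0.31 [-0.43 to -0.18] for Cdkn1b. None of these 4 was called, as 0.985% of all 12591 genes tested were. Cdkn2a was not tested, with 39 counts. The Cdkn2b ratio depended on which cells were counted. It went from 0.37 to 0.95 without the cells of unnamed clusters. It was -0.57 when 7 classes with 50 or more cells in both libraries were given the same weights. These classes left out type I-like cells and held 103 Cdkn2b counts, and what moved the ratio was not tested. At pnd60 the 4 ratios lay between 0.00 and 0.12 and every interval held 0, none was called, and 0.518% of all 12928 genes were. The median ratio of the 4 members was 0.15 at pnd7 and 0.04 at pnd60, against -0.02 and 0.01 over all genes.

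Within classes the log2 ratios of tested members lay between -0.79 and 0.45 at pnd7, and between -0.37 and 0.31 at pnd60. Larger ratios of a class at pnd7 rested on under 100 counts. Among single clusters, Cdkn1b of endothelial-like cluster 16 had a ratio of -0.87 [-1.37 to -0.38] (58 and 93 counts). Cdkn2b of unnamed cluster 3 had 0.61 [0.14 to 1.05] (57 and 153 counts). Cdkn2c of type II-like cluster 11 stood at 10.1 CPM in hyperoxia and 2.75 in air (26 and 7 counts, 1.88 [0.64 to 3.33]). Of type II-like cells at pnd7, 23.6% in hyperoxia and 5.68% in air had cell cycle genes. Cdkn2d of erythroid-like cells stood at 8.38 and 63.0 CPM (2 and 34 counts, -2.91 [-6.01 to -0.95]). None of 12 tests of a member in a class at pnd7 and none of 14 at pnd60 was called. At pnd7 the share of all genes called was 0.411% in endothelial-like, 0.859% in fibroblast-like, 0.552% in myofibroblast or smooth muscle-like, 0.575% in alveolar macrophage-like, 0.65% in monocyte-like and 0.801% in type II-like cells. At pnd60 it was 0.296% in endothelial-like, 0.85% in fibroblast-like, 0.533% in alveolar macrophage-like, 0.507% in monocyte-like, 0.167% in type II-like, 0.193% in B cell-like, 0.173% in T cell-like and 0.383% in NK cell-like cells. At pnd7 Cdkn2c of fibroblast-like cells had a log2 ratio of 0.45 [0.17 to 0.72], 142 CPM in hyperoxia and 104 in air. Cells with cell cycle genes were more frequent in the hyperoxia library, and without such cells Cdkn2c of fibroblast-like cells stood at 109 CPM in hyperoxia and 83.1 in air. Cdkn1b of endothelial-like cells stood at 48.0 CPM in hyperoxia and 82.9 in air, a ratio of -0.79 [-1.25 to -0.34], and of the other 5 classes tested none had an interval that excluded 0. At pnd60, 1 of 14 class intervals excluded 0, that of Cdkn1b in monocyte-like cells (206 CPM in hyperoxia and 265 in air, -0.37 [-0.63 to -0.10]). The T cell-like class joined clusters that differed in Cdkn2d at pnd60. Cluster 4 stood at 131 CPM in hyperoxia and 76.8 in air (0.77 [0.24 to 1.31]). Cluster 6 stood at 113 and 118 CPM (-0.06 [-0.52 to 0.40]).

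The 2 ages differed more. From pnd7 to pnd60 in air the log2 ratios were -0.59 [-0.87 to -0.32] for Cdkn2b, -0.78 [-0.96 to -0.59] for Cdkn2c, 0.08 [-0.06 to 0.22] for Cdkn2d and 0.88 [0.78 to 0.98] for Cdkn1b. None was called, against 24.4% of all genes. In the hyperoxia libraries they were -0.96 [-1.23 to -0.70], -1.05 [-1.22 to -0.87], 0.23 [0.09 to 0.37] and 1.21 [1.10 to 1.32], so Cdkn2c was called lower and Cdkn1b higher at pnd60, 2 of 4 members against 28.6% of all genes. Without cells with cell cycle genes, the Cdkn2c ratio was -0.22 [-0.46 to 0.01] in air and -0.35 [-0.58 to -0.12] in hyperoxia and was not called, while in hyperoxia Cdkn2b was called lower (-1.09 [-1.37 to -0.81]) and Cdkn1b stayed called higher (1.25). The mix of cells differed between the ages, with more lymphocytes and fewer cells with cell cycle genes at pnd60. With the classes of at least 50 cells given the same weights at both ages, the Cdkn1b ratio was 0.60 in air and 0.77 in hyperoxia, that of Cdkn2c was -0.57 and -0.70, and that of Cdkn2b turned to 1.003 and 0.26. Type I-like cells were not among the classes weighted in air.

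Cdkn1b was higher at pnd60 in class after class. In air all 6 classes tested had an interval above 0. The median log2 ratio over all genes was also above 0 in each, from 0.06 in fibroblast-like to 0.42 in T cell-like cells. The Cdkn1b level rose from 40.1 to 95.1 CPM in fibroblast-like cells (1.25 [0.82 to 1.69], called, against 27.6% of all genes). It stood at 52.2 and 82.6 CPM in type II-like, 56.0 and 94.0 in alveolar macrophage-like, 160 and 250 in T cell-like, 188 and 265 in monocyte-like and 82.9 and 107 in endothelial-like cells at pnd7 and pnd60, ratios of 0.37 to 0.75 that were not called, where 12.8%, 6.71%, 27.0%, 10.0% and 25.6% of all genes were. In the hyperoxia libraries it rose in endothelial-like cells from 48.0 to 113 CPM (1.23 [0.84 to 1.65], 26.8% of all genes called) and in type II-like cells from 41.4 to 90.4 CPM (1.13 [0.80 to 1.46], 18.1%). Fibroblast-like cells had 38.3 and 75.2 CPM (0.97 [0.53 to 1.42], 31.4%), and the intervals of the alveolar macrophage-like, monocyte-like and type I-like cells held 0, where 8.39%, 11.3% and 38.4% of all genes were called. Without cells with cell cycle genes the ratios were 1.28 and 1.10 in fibroblast-like and 0.85 and 1.77 in endothelial-like cells, in air and hyperoxia. The classes were made mostly of different clusters at the 2 ages, endothelial-like of cluster 16 at pnd7 and of clusters 1 and 17 at pnd60, with 15 to 54 cells a library in cluster 24 at both ages, fibroblast-like mostly of 18 and then 5, and type II-like mostly of 11 and then 2.

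Cdkn2c of endothelial-like cells was lower at pnd60, as was the share of these cells with cell cycle genes. It stood at 61.4 CPM in air and 59.8 in hyperoxia at pnd7, and at 7.68 and 14.6 at pnd60 (13 and 28 counts). The log2 ratio was -2.04 [-2.71 to -1.41] in hyperoxia, which was called, and -3.00 in air, where 90 counts were too few for a call. Cdkn2d fell with it, from 57.8 to 21.9 CPM in the hyperoxia libraries (-1.40 [-1.97 to -0.85], called). In air its ratio was -0.97 (64 counts at pnd7 and 44 at pnd60), which was not called. At pnd7, endothelial-like cells without cell cycle genes had 18.3 CPM of Cdkn2d in air and 23.6 in hyperoxia (16 and 21 counts). Cells with cell cycle genes were 23.2% and 34.6% of endothelial-like cells at pnd7 and 0.770% and 1.12% at pnd60. Without them Cdkn2c stood at 6.85 CPM at pnd7 and 7.13 at pnd60 in air, and at 11.3 and 14.7 in hyperoxia, with 18 and 38 counts and log2 ratios of 0.06 [-1.47 to 1.76] and 0.38 [-0.70 to 1.59]. In fibroblast-like cells the Cdkn2c ratios were 0.17 [-0.15 to 0.48] in air and -0.04 [-0.31 to 0.23] in hyperoxia, and without cells with cell cycle genes 0.52 [0.17 to 0.87] and 0.34 [0.04 to 0.65].

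**Figure D5:**
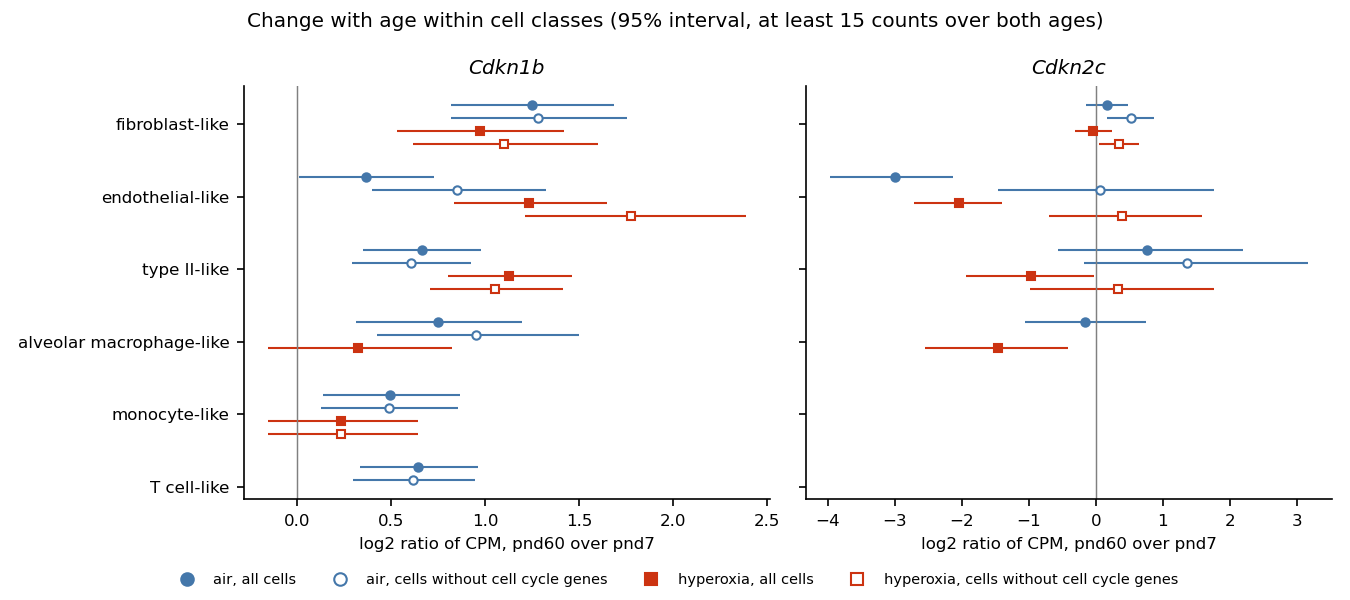
Log2 ratio of the pnd60 to the pnd7 level of Cdkn1b and Cdkn2c within cell classes, over all cells (filled) and over cells without cell cycle genes (open), in air and hyperoxia. Bars are 95% binomial intervals, and ratios with under 15 counts are left out. Every Cdkn1b point lies above 0, and the endothelial-like Cdkn2c ratios move from -3.00 and -2.04 to 0.06 and 0.38 when cells with cell cycle genes are left out.

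The sorted library was low in 3 members. Against unsorted hyperoxia the log2 ratios were -3.50 [-4.33 to -2.78] for Cdkn2b, -2.20 [-2.53 to -1.88] for Cdkn2c, -2.20 [-2.54 to -1.88] for Cdkn2d and -0.32 [-0.49 to -0.14] for Cdkn1b. So 3 of 4 were called, all lower, against 44.6% of all genes called and 36.4% called lower. Against air at pnd7 the ratios were -3.13, -1.87, -2.23 and -0.62, and 3 of 4 were called lower, against 46.3% of all genes called and 38.5% called lower. Both comparisons share the sorted library. The unsorted libraries came from the authors' earlier dataset, so sorting and the separate experiment cannot be told apart. Alveolar macrophage-like cells were 83.8% of the sorted cells and 4.41% of the unsorted hyperoxia cells, and the sorted ones were 369 cells of a cluster led by Hmox1, Slc7a11, Mt1, Mt2, Mmp12 and Gdf15, stress and macrophage activation genes, and 44 of a cluster led by cell cycle genes, while the unsorted ones were mostly in cluster 7.

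Within alveolar macrophage-like cells Cdkn1b stood at 46.8 CPM in the sorted library (311 counts), 59.6 in unsorted hyperoxia (52 counts) and 56.0 in air (64 counts). The log2 ratios of -0.35 [-0.78 to 0.10] and -0.26 [-0.65 to 0.15] were not called, where 18.0% and 17.5% of all genes were. Cdkn2c stood at 10.7 CPM (71 counts), 24.1 (21 counts) and 18.4 (21 counts), and Cdkn2d at 9.48 (63 counts), 25.2 (22 counts) and 31.5 (36 counts), both with under 100 counts a pair. Cdkn2b had 3 counts in 413 sorted cells of this class, 0 in 55 unsorted hyperoxia cells and 1 in 82 air cells. Cdkn2a had 3, 1 and 1. Levels of Cdkn2a and Cdkn2b in these macrophages were thus near the limit of 3 counts in all 3 libraries.

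Of 20 further genes of the pathway, the CIP/KIP relatives, CDKs, cyclins, retinoblastoma family, E2F factors, the p53 arm and the p27-degrading Skp2 and Cks1b, 19 had enough counts. None was called in hyperoxia against air at pnd7 or pnd60, where 0.985% and 0.518% of all genes were. Cdkn1a was nevertheless higher in hyperoxia at pnd7, with intervals that did not overlap. In cells with cell cycle genes it stood at 25.4 CPM [20.6 to 30.8] in hyperoxia and 14.8 [10.9 to 19.7] in air. In the other cells it stood at 19.6 CPM [16.9 to 22.6] in hyperoxia and 10.3 [8.67 to 12.2] in air. From pnd7 to pnd60 in air 3 rose, namely Cdkn1a, the inhibitor p21 (2.00), Rb1 (1.06) and E2f2 (1.09), and 5 fell, namely the inhibitor p57, Cdkn1c (-2.36), Cks1b (-1.99), Ccne2 (-1.62), Cdk4 (-1.56) and E2f3 (-1.08). In the hyperoxia libraries 2 rose, Rb1 (1.25) and E2f2 (1.21), and 6 fell, namely Ccne2 (-3.10), Cks1b (-2.68), Cdkn1c (-2.03), Cdk4 (-1.65), E2f3 (-1.37) and Ccne1 (-1.05). Of all genes, 24.4% in air and 28.6% in hyperoxia were called in either direction. The median of the list was 0.19 in air and 0.18 in hyperoxia, against 0.23 and 0.29 over all genes, and 17 and 18 of the 20 cell cycle genes were called lower. In the sorted library against unsorted hyperoxia 2 rose, Cdkn1a (2.37) and the p53 target Mdm2 (2.54), and 4 fell, the D-type cyclin genes Ccnd1 (-3.84) and Ccnd3 (-2.53), Cdk4 (-1.19) and Cdkn1c (-4.81). Against air at pnd7, 3 rose, Cdkn1a (3.30), Mdm2 (2.62) and Ccne2 (1.59), and 4 fell, Cdkn1c (-4.90), Ccnd1 (-3.58), Ccnd3 (-2.44) and Rbl2 (-1.03). The list's median was -0.17 and -0.29 in these 2 comparisons, against -0.55 and -0.59 over all genes. Of all genes, 44.6% and 46.3% were called in either direction.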

How the data were processed

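The deposited tables hold 10x Genomics UMI counts per gene and cell barcode. The authors made these counts with Cell Ranger (matrix header version 3.1.0) on build mm10, and the submitters' processing notes also name Seurat 3.2.1. The 5 genes, the pathway and cell cycle lists and the call rule were chosen with earlier results of these data known. The genes named are the 5 members, both lists and the 3 nearest genes of each member, of which 1 is not reported here.

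Cells with more than 700 and fewer than 8000 genes and under 5% mitochondrial counts were kept. Only 2 mitochondrial features are in the table. Counts were summed over cells of a library or class and divided by their total (CPM), with exact Poisson 95% intervals. Ratios carry exact binomial intervals, and a gene with at least 100 counts over a pair was called at a log2 ratio of at least 1 in size. With 1 library per group no test across mice was made. Shares carry Clopper-Pearson intervals, and a floor is 3 counts. Intervals and floors cover counting error only. The number of mice in the unsorted libraries is not given in the sources used here.

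Cells were clustered with scanpy 1.11.5 (3000 variable genes without the members, both lists and mitochondrial genes, 50 components, 20 neighbours, Leiden resolution 1, no integration) into 41 clusters, 32 of them named from markers. Scrublet called 315 cells (2.39%) doublets, which were kept and left out in an alternative. Ratios and thinning were tested on simulated counts. Other filters, scalings and groupings were tried as alternatives.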

Additional observations from a re-analysis of the deposited data

How the results depend on the processing

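No paired analysis was possible because all groups had 1 library each. The counts of members past 2-fold in hyperoxia against air stayed at 0 under all alternatives run. From pnd7 to pnd60 in air the count of 0 became 1 with no filter on cells, with the mean of CPM per cell, with cells thinned to 1000 counts, with ratios centred on the median gene, with classes given the same weights, and, in an alternative chosen after seeing the data, without unnamed clusters. In hyperoxia the count of 2 became 1 with no filter and with thinned cells, and 0 with the same weights. It stayed 2 without cells with cell cycle genes, with Cdkn2b in place of Cdkn2c. In the sorted library 3 members were called, but with thinned cells 0 against unsorted hyperoxia and 1 against air, where only 1 and 2 members reached 100 counts, and all 3 ratios stayed past 2-fold. With the same weights, which left 1 class, 0 were called in both, and Cdkn2c (-1.17) and Cdkn2d (-1.41) against unsorted hyperoxia and Cdkn2d (-1.73) against air were past 2-fold with under 100 counts. Within classes 5 of 50 tests were called, 8 of 56 at Leiden resolution 2 and 11 of 73 with cells classed by their own markers. At the main setting the share of all genes called in these class comparisons ran from 0.167% to 38.4%. The shares for the other groupings are not given here. In the class with most cells with cell cycle genes, 0 members were called in air and hyperoxia at pnd7 and at pnd60, where few members reached 100 counts. Without cells with cell cycle genes, chosen after seeing the data, Cdkn2c in endothelial-like cells from pnd7 to pnd60 in hyperoxia turned from -2.04 to 0.38 on the log2 scale. Depth limits Cdkn2a most, with 61 counts, and what moved the other counts was not tested.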
